A study of Saccharomyces cerevisiae with 6 samples.

Results

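Young and bulk ribosomal RNA of the yeast Saccharomyces cerevisiae were set side by side for both ribosomal subunits, each pair of values coming from the same 2 libraries. The young material was chromatin-associated RNA of the wild-type strain BY4741, which is enriched for transcripts still at or near the gene. The bulk material was whole-cell RNA of the knock-out strain YWD486, which carries a plasmid with the snR67-snR53 region and 1 base changed so that LSU-G2619 is not methylated. Neither RNA was gel-purified, per the labels, so that whole-cell RNA rather than excised mature rRNA served as the reference. These are 2 of the 6 samples of the series. The strain and its plasmid, the RNA fraction and the sequencing depth all differed between them, and their parts cannot be told apart. The values compared were those at 54 of 55 known ribose methylation sites, 36 in the large subunit (LSU, 25S rRNA) and 18 in the small subunit (SSU, 18S rRNA). The remaining site, LSU-Gm2619, is the one the knock-out strain was built to lose and was kept out of counts and medians.

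Nearly all ribose methyl groups of yeast rRNA are placed under the guidance of box C/D snoRNAs, which base-pair with the precursor and bring the methyltransferase Nop1 to a chosen nucleotide. Much of this guided methylation takes place on the nascent precursor, while some modifications are made late, on particles that have left the site of transcription. LSU-Gm2922 in the A loop of the peptidyl transferase centre is such a case, made by the stand-alone enzyme Spb1. In RiboMeth-seq the RNA is fragmented, and each bond is scored by how many sequenced fragments start or stop there. A 2'-O-methyl group protects the bond next to it, so that a methylated position has fewer read ends than its neighbours.

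For the methylation score used here, the read ends of a position were divided by the weighted mean of 6 neighbours on each side (the flank mean), the quotient was subtracted from 1 and negative values were set to 0. It nears 1 where nearly all molecules are protected. The chromatin library held 18489246 read ends on 25S and 9790438 on 18S rRNA, and the knock-out library 214862 and 214756, so that chromatin was 86.1 and 45.6 times deeper. The median position had 3883 (25S) and 3956.5 (18S) read ends in chromatin and 51 and 96 in the knock-out, and the depth of the knock-out therefore limits every comparison. Each side had 1 sample, so no p-value was calculated. Intervals of 95% cover counting error only, since reads that carry no molecular identifier may be copies of 1 molecule. A site counted as lower or higher when 0 was outside the interval of its score difference and this was larger than 2 SD of the run-to-run differences at known sites in the knock-in whole-cell sample (strain YWD680, with a plasmid for an artificial snoRNA), the repeat measurement at hand. That limit came to 0.329 for LSU sites and 0.151 for SSU sites. In the coordinates of the deposited annotation, whose build is not named, 25S rRNA spans 460923 to 464318 and 18S rRNA 465070 to 466869 of chromosome XII, minus strand. All positions below count from the 5' end of the non-coding mature rRNA.

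The engineered site behaved as its label states. LSU-G2619 (position 461700 of chromosome XII) had 114 read ends in the knock-out against a flank mean of 69.1, a score of 0. In chromatin it had 415 against 2397, a score of 0.827. LSU-Um2724, which snR67 also guides, scored 0.914 in the knock-out and 0.950 in chromatin. SSU-Am796, guided by the neighbouring snR53, scored 0.948 and 0.893. LSU-U2954, which is methylated only by the artificial guide of another strain, scored 0 in both libraries.

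Methylation scores in young rRNA were moderately below those in bulk rRNA in both subunits. The median score of the 36 LSU sites was 0.975 in the knock-out and 0.840 in chromatin, and that of the 18 SSU sites was 0.972 and 0.852. LSU sites differed by a median of -0.130 and SSU sites by a median of -0.101. Measured against the knock-in whole-cell runs instead, the chromatin medians were -0.086 and -0.0499. Against gel-purified wild-type rRNA, from the same strain as chromatin, they were -0.135 and -0.085. The knock-in runs themselves stood below the knock-out by medians of -0.0284 at LSU and -0.0492 at SSU sites, so that the size of the difference depended on the whole-cell library taken as bulk. In the LSU 30 sites were lower in value and 6 were higher, and in the SSU all 18 were lower. The counting interval of the difference lay below 0 at 23 LSU and 15 SSU sites and above 0 at none of either. The share of all positions with such an interval was not calculated, so these counts have no background beside them. A score of at least 0.9 was reached by 28 LSU sites in the knock-out and by 5 in chromatin, and by 17 and 5 SSU sites. Unlisted positions had median scores near 0 in both libraries, 0.110 and 0.131 in the LSU and 0.119 and 0.139 in the SSU, and a median difference of 0. Since negative scores were set to 0, positions at this floor in both libraries differ by 0. That median is therefore no control for sites with scores near 1.

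Past the size limit as well, 3 LSU sites were lower in chromatin and 0 were higher. The lower sites were LSU-Gm2922, LSU-Am2256 and LSU-Gm867. By the same criterion 10.7% of all LSU positions were lower and 15% were higher, so that the share of LSU sites called lower, 8.33%, was near the background. In the SSU 3 sites were lower and 0 were higher, namely SSU-Am100, SSU-Am541 and SSU-Am619. That share of 16.7% stood beside 22% of all SSU positions called lower and 28.5% called higher. The LSU limit rested largely on LSU-Um2421, whose knock-in runs differed by 0.872. Without that site the limit was 0.164, and 13 LSU sites (36.1%) were lower and 0 higher, beside 15.7% and 24.9% of all LSU positions. Whether the LSU share stood near or above the background therefore depended on 1 site, and the sites are described below by their own values. Read ends were more uneven between positions in chromatin, with a coefficient of variation of 0.986 in the LSU and 1.00 in the SSU, than in the knock-out, with 0.865 and 0.793. This was not particular to chromatin, since the combined knock-in whole-cell runs had 1.16 and 1.15. Their first run had 0.704 and 0.721 and their second 1.64 and 1.58. The median site scores of the combined runs were 0.942 and 0.929. The part of this unevenness in the score differences was not tested.

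**Figure D1:**
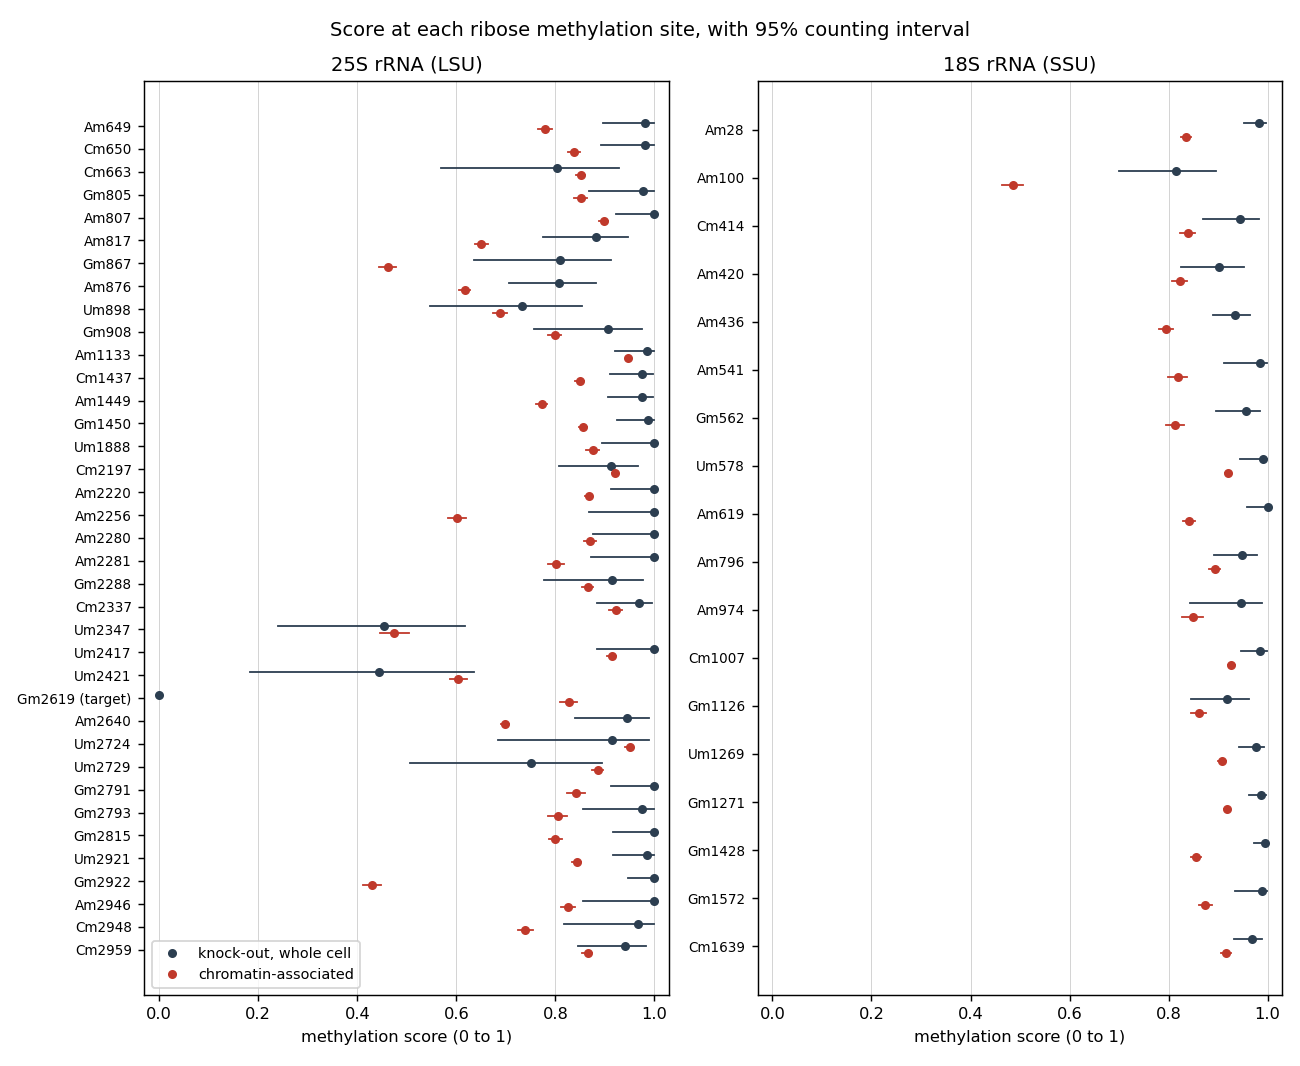
Methylation score (horizontal axis, 0 to 1) at each known ribose site of 25S rRNA (left) and 18S rRNA (right), ordered from the 5' end, in the knock-out whole-cell library (dark) and the chromatin-associated library (red). Points are scores of 1 library each and bars are 95% counting intervals. LSU-Gm2922 stands at 1.00 and 0.430, and SSU-Am100 at 0.816 and 0.485.

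The site of Spb1 had the most negative difference of all 54. LSU-Gm2922 (position 461397 of chromosome XII) had 0 read ends in the knock-out, with a flank mean of 70.2, and 3791 in chromatin, with a flank mean of 6651. Its score was 1.00 in the knock-out (95% interval 0.947 to 1.00) and 0.430 in chromatin (0.411 to 0.448), a difference of -0.570 (-0.589 to -0.514). Had the bond been as open in the knock-out as in chromatin, 40.0 read ends would have been counted there. Relative to the flanks, its read ends were 13.3-fold higher in chromatin when the 0 was counted as 3 ends, and the lower 95% counting limit was 10.8-fold. The adjacent LSU-Um2921 in the same loop, guided by snR52, scored 0.985 in the knock-out with 1 read end and 0.843 in chromatin, a difference of -0.142. In chromatin LSU-Gm2922 thus had more read ends than both neighbouring bonds, with 1117 at LSU-Um2921 and 1464 at the pseudouridine LSU-Psi2923. Both neighbours are themselves modified positions with few read ends, LSU-Psi2923 scoring 0.784 in chromatin, and do not stand for open bonds. The knock-out had 1 and 14 at these neighbours.

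LSU-Am2256 and LSU-Gm867 followed. LSU-Am2256, guided by snR63, had 0 read ends in the knock-out against a flank mean of 28.2, and 1802 in chromatin against 4524. The scores were 1.00 and 0.602, a difference of -0.398 (-0.418 to -0.266), and 11.2 read ends would have been counted in the knock-out at the chromatin level. Of its 1802 ends in chromatin 1653 were 5' ends and 149 were 3' ends. With 3' ends alone the difference was -0.169 and did not pass, and with 5' ends alone it was -0.454 and did. LSU-Gm867, guided by snR50, had 9 read ends in the knock-out and 4280 in chromatin, with scores of 0.810 and 0.461 and a difference of -0.348 (-0.453 to -0.174). Its 4280 ends in chromatin were evenly divided, 2296 being 3' ends and 1984 being 5' ends.

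In the SSU the most negative difference was at SSU-Am100 (position 466770 of chromosome XII), guided by snR51. It had 16 read ends in the knock-out against a flank mean of 86.8 and 2376 in chromatin against 4618. The scores were 0.816 and 0.485, a difference of -0.330 (-0.412 to -0.212). SSU-Am541, guided by snR41, had 1 read end in the knock-out and 352 in chromatin, with scores of 0.984 and 0.820. SSU-Am619, guided by snR47, had 0 and 669, with scores of 1.00 and 0.841. The differences at these last sites, -0.164 and -0.159, were close to the limit of 0.151. SSU-Am541 passed with neither kind of end alone, at -0.200 with 3' ends and -0.095 with 5' ends, and SSU-Am619 passed with 5' ends (-0.166) but not with 3' ends (-0.123). SSU-Am28 (snR74) at -0.148 and SSU-Gm562, a site without an assigned guide here, at -0.142 lay just inside it.

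**Figure D2:**
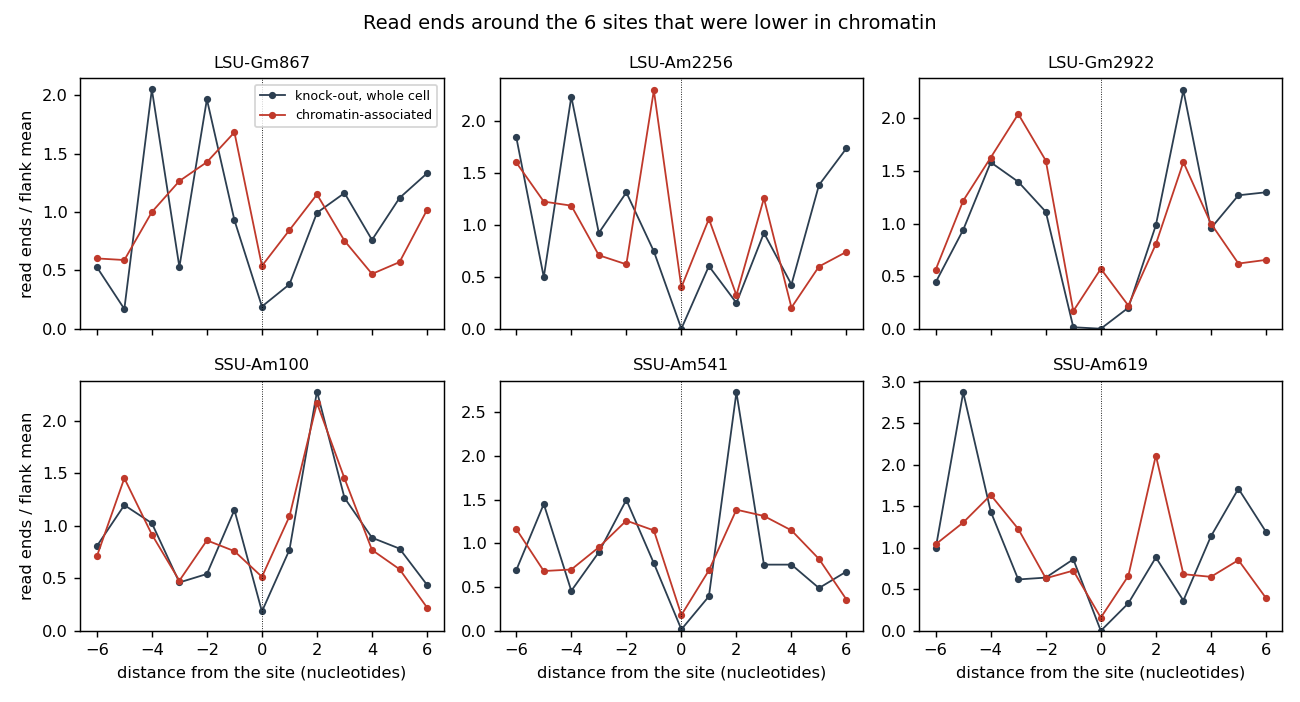
Read ends divided by the flank mean (vertical axis) at the 6 positions on each side of the 6 sites that were lower in chromatin (horizontal axis, nucleotides from the site), in the knock-out (dark) and chromatin (red) libraries, 1 library each. At LSU-Gm2922 the knock-out curve touches 0 and the chromatin curve reaches 0.570; the flanks differ between the libraries as well.

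The references mattered more for some of these sites than for others. The combined knock-in whole-cell runs scored 0.991 at LSU-Gm2922, 0.961 at LSU-Am2256 and 0.823 at LSU-Gm867, and gel-purified wild-type rRNA, from the same strain as chromatin, scored 0.984, 0.966 and 0.949. Chromatin was below each of these libraries at all 3 sites by more than the limit. For SSU-Am100 the knock-in runs gave 0.914 and wild type 0.771, and for SSU-Am541 0.992 and 0.985, again with chromatin lower past the limit. SSU-Am619 scored 0.899 in the knock-in runs and 0.917 in wild type, and its differences of -0.057 and -0.076 from chromatin did not pass it. All of these comparisons share the chromatin library.

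Because scores close to 1 leave little room, the read ends in the knock-out were also set against the number that the chromatin level would give at the same flank mean. Over the 36 LSU sites 168 read ends were counted in the knock-out, where 420.4 would stand at the chromatin level. Over the 18 SSU sites 93 were counted, where 349 would stand. The counted number was below the number at the chromatin level at 30 LSU sites and at all 18 SSU sites. By construction these are the sites with a lower score in chromatin, so that this count is no separate result. SSU-Gm1428 (snR56) had 1 read end where 29.3 would stand, SSU-Am28 had 3 where 29.9 would stand, and SSU-Am436 (snR87) had 14 where 43.3 would stand. SSU-Gm1428 and SSU-Am436 were chosen after their values were seen.

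Relative read ends at least 2-fold higher in chromatin, with a counting interval above 1, were found at 16 of 36 LSU sites (44.4%) against 12.3% of all LSU positions, and at 14 of 18 SSU sites (77.8%) against 14.1% of all SSU positions. This criterion was added after the data had been seen. A count of 0 in the knock-out was taken as 3 ends here, while smaller nonzero counts were kept as they were. The knock-out had 0 ends at 11 LSU sites and at 1 SSU site, so this rule bore mostly on the LSU share. LSU-Am2281, for example, had 0 ends and did not pass at 1.91-fold, although its lower counting limit was 1.54. The knock-in whole-cell runs, which share the knock-out as the reference, gave 4 LSU sites (11.1%) against 4.55% of positions and 7 SSU sites (38.9%) against 5.1%. At the knock-in level 259 read ends would stand at the LSU sites and 216 at the SSU sites of the knock-out. Another whole-cell library therefore also had more read ends at the methylated positions than the knock-out. Its shares of sites and its read-end totals were smaller than those of chromatin in both subunits, but so were its shares of all positions. The knock-in runs, with 734670 LSU and 517732 SSU read ends, were also shallower than chromatin, and the criterion needs a counting interval above 1. The extents relative to these backgrounds were not tested, and no ranking of the libraries is drawn from them.

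**Figure D3:**
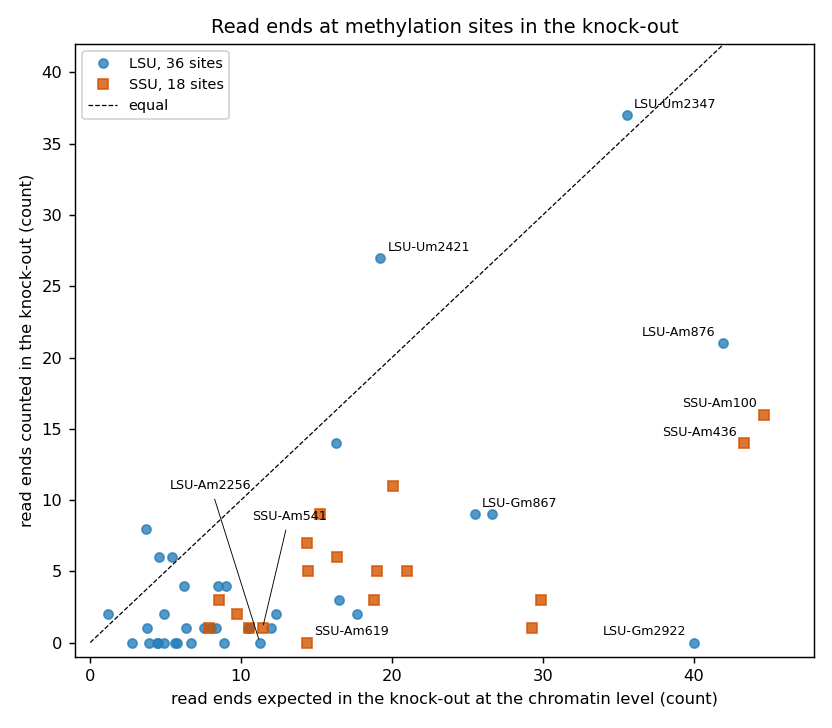
Read ends counted at each site in the knock-out (vertical axis) against the number that would stand there at the relative level seen in chromatin (horizontal axis), for 36 LSU (circles) and 18 SSU sites (squares). The dashed line marks equality; 6 LSU sites lie above it and the remaining 48 below it, with LSU-Gm2922 at 0 against 40.0.

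Several LSU sites had the same or a higher score in chromatin. LSU-Um2421, guided by snR78, had the most positive difference, 0.160 (-0.033 to 0.422), with 27 read ends and a score of 0.444 in the knock-out and 0.604 in chromatin. Its score was unstable, with 0.872 and 0 in the separate knock-in runs and 0.930 in wild type, and with 3' ends alone the difference was 0.519, past the limit for those ends. LSU-Um2729 (snR51) scored 0.752 in the knock-out and 0.886 in chromatin, LSU-Cm663 (snR58) 0.804 and 0.851, and LSU-Um2724 0.914 and 0.950. LSU-Um2347 (snR65) was partly protected in each, at 0.454 and 0.475, with 37 read ends in the knock-out where 35.6 would stand at the chromatin level. The intervals of all these differences held 0. Further down the LSU order LSU-Am2640 (snR68) scored 0.945 in the knock-out and 0.698 in chromatin and LSU-Am817 (snR60) 0.882 and 0.651, differences of -0.247 and -0.231 inside the limit.

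No SSU site had a higher value in chromatin. The smallest differences were -0.053 at SSU-Cm1639 (snR70), -0.055 at SSU-Am796, -0.057 at the snR41 site SSU-Gm1126, -0.058 at the snR79 site SSU-Cm1007 and -0.068 at the snR55 site SSU-Um1269. The intervals held 0 at SSU-Am796 and SSU-Gm1126. SSU-Cm1007 kept the highest SSU score in chromatin, 0.927, and LSU-Um2724 the highest LSU score.

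Grouped by position, the 14 LSU sites up to position 1500 had a median difference of -0.128 and the 22 sites beyond it one of -0.131. The 6 sites beyond position 2800 had a median of -0.187, and their scores lay between 0.430 and 0.865 in chromatin and 0.940 and 1.00 in the knock-out. In the SSU the 10 sites up to position 900 had a median difference of -0.140 and held all 3 called sites, and the 8 sites beyond it had -0.069. Grouped by the guide's gene, the 7 LSU sites of intron-encoded snoRNAs (U18, U24, snR38 and snR39 or snR59) differed by -0.203 to -0.102, with a median of -0.142. Together they had 7 read ends in the knock-out, where 74.5 would stand at the chromatin level. The 8 LSU sites of guides from polycistronic clusters had a median of -0.015, with 73 read ends where 90.3 would stand. Relative read ends at least 2-fold higher were seen at 6 of the 7 and 0 of the 8 sites, beside 12.3% of all LSU positions, so that 0 of 8 was near the background. The 10 SSU sites of cluster guides had a median of -0.087, and 8 of them passed, beside 14.1% of all SSU positions. The 20 LSU sites of guides with their own gene had a median of -0.137, near that of the intron-encoded class, and 9 of them (45%) passed. The 6 SSU sites of own-gene guides had a median of -0.109, and 5 of them passed. LSU-Am807, the intron site that did not pass, had 0 read ends in the knock-out, counted as 3 ends. No difference between guide classes was tested. The groups were small and are given as descriptions.

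Guides with a target in each subunit allowed the same snoRNA to be read in both. For snR52 the differences were -0.142 at LSU-Um2921 and -0.080 at SSU-Am420. For snR47 they were -0.132 at LSU-Am2220, which had 0 read ends in the knock-out, and -0.159 at SSU-Am619. For snR40 they were -0.043 at LSU-Um898 and -0.069 at SSU-Gm1271. The targets of snR51 had opposite signs, 0.134 (-0.008 to 0.380) at LSU-Um2729 and -0.330 at SSU-Am100. Only SSU-Am619 and SSU-Am100 among these 8 sites passed the criteria.

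Pseudouridines, made by box H/ACA snoRNAs, are not ribose-methylated, but their bonds also yield few read ends in this assay. Over the 30 LSU pseudouridines the median score was 0.637 in the knock-out and 0.732 in chromatin, with a median difference of 0.073. Over the 13 SSU pseudouridines it was 0.630 and 0.709, with a median difference of 0.139. These differences had the opposite sign to those at ribose sites. The called pseudouridines were 3 higher and 0 lower in the LSU, and 6 higher and 3 lower in the SSU, beside the background shares given above. LSU-Psi990 scored 0.238 in the knock-out and 0.813 in chromatin, and SSU-Psi759 0 and 0.568. With 3' ends alone the gaps were smaller. LSU-Psi990 then scored 0.690 and 0.805, with an interval of the difference from -0.042 to 0.366, and SSU-Psi759 0.768 and 0.972. These examples were chosen after their values were seen. The sign depended on the ends counted, since with 3' ends alone the median differences were -0.072 and -0.021 and with 5' ends alone 0.142 and 0.299.

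Base modifications were read in another way. Some of them, such as m1A, m3U, m62A and the hypermodified m1acp3-pseudouridine, alter the pairing face of the base and hinder reverse transcription, so that fragments containing them are recovered less often. Fragments were 20 to 40 nucleotides long, per the design text. The 5' ends in the 19 positions before a base and the 3' ends in the 19 positions after it therefore belong to fragments that cross it, and the remaining ends in these windows to fragments that do not. Of the 12 listed base modifications 11 had full windows.

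The clearest difference lay at the 3' end of 18S rRNA, at the pair of adenosines that Dim1 dimethylates on the pre-40S particle. Around SSU-m62A1781 (position 465089 of chromosome XII) the knock-out had 199 crossing and 1328 non-crossing ends. Chromatin had 115339 and 41915, so that crossing ends prevailed there. The difference was 4.20 on the log2 scale (95% counting interval 3.98 to 4.41). It was larger than at any of 1430 other SSU positions away from base modifications and ends, where the central 95% ran from -2.28 to 1.89. In the upstream window alone the knock-out had 36 crossing 5' ends beside 1325 3' ends (2.65%), and chromatin 52080 beside 39532 (56.8%). The share was 1.78% and 15.2% in both knock-in runs and 12.2% in gel-purified wild-type 18S rRNA, which comes from the same strain as chromatin. Chromatin was therefore well above each of these libraries, which differed among themselves.

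The position lies 19 nucleotides from the 3' end of mature 18S rRNA, where a precursor continues and a mature molecule stops. The dimethylation and this difference in the molecule's end cannot be told apart here. With windows of 10 positions the difference at SSU-m62A1781 was 1.54 and no longer lay above the central 95% of other positions, whereas that at SSU-m62A1782 did. SSU-ac4C1773, an acetylated cytidine made by Kre33 whose windows overlap those of the dimethyladenosines, had ratios of 0.338 and 1.75, a difference of 2.37.

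**Figure D4:**
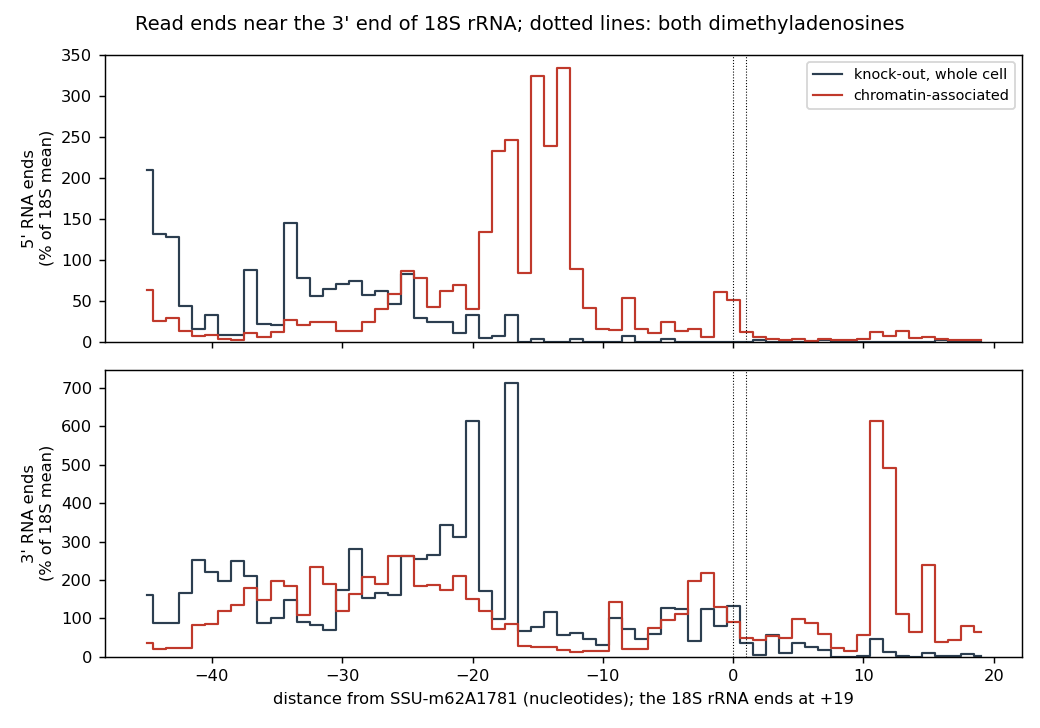
5' RNA ends (top) and 3' RNA ends (bottom) as a percentage of the mean over 18S rRNA, by distance from SSU-m62A1781 in nucleotides, in the knock-out (dark) and chromatin (red) libraries, 1 library each. Dotted lines mark both dimethyladenosines; 5' ends of crossing fragments between -19 and -1 numbered 52080 in chromatin and 36 in the knock-out.

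At the other SSU position that hinders reverse transcription, SSU-m1acp3Psi1191, completed by Emg1 and Tsr3, the ratio was 0.229 in the knock-out and 0.543 in chromatin, a difference of 1.25 (1.11 to 1.38). A difference as large was seen at 8.74% of other SSU positions. The 4 LSU positions of this kind had low ratios in both libraries. At LSU-m1A645 (Rrp8) the ratio was 0.321 in the knock-out and 0.124 in chromatin, at LSU-m1A2142 (Bmt2) 0.329 and 0.188, and at LSU-m3U2634 (Bmt5) 0.144 and 0.0892. Only LSU-m3U2843 (Bmt6) had a higher ratio in chromatin, 0.425 against 0.358. Chromatin was at or below these values at 0.258%, 2.07%, 0.111% and 13.7% of other LSU positions, in the same order. The separate knock-in runs gave ratios of 0.373 and 0.234 at LSU-m1A645 and 0.582 and 0.304 at LSU-m1A2142. They gave 0.143 and 0.383 at LSU-m3U2634 and 0.611 and 0.163 at LSU-m3U2843. Except at LSU-m1A645, the runs lay further apart than chromatin and the knock-out, which limits the reading of these differences. Chromatin was below both runs except at LSU-m3U2843. Among other listed base modifications, the differences were 0.095 at LSU-m5C2278, 0.791 at LSU-m5C2870, 0.425 at SSU-m7G1575 and -0.211 at SSU-ac4C1280. SSU-m7G1575, SSU-ac4C1280 and LSU-m5C2278 changed sign under another window or reference. The knock-in runs also lay further apart than chromatin and the knock-out at SSU-m7G1575 (0.850 and 0.511) and SSU-ac4C1280 (1.59 and 0.820). At the m5U positions, which leave the pairing face free, the differences were -1.46 at LSU-m5U956, with ratios of 3.54 in the knock-out and 1.28 in chromatin, and 0.565 at LSU-m5U2924. The difference at LSU-m5U956 was thus as large as that at LSU-m1A645, -1.38, and a lower ratio in chromatin was not particular to bases that hinder reverse transcription.

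**Figure D5:**
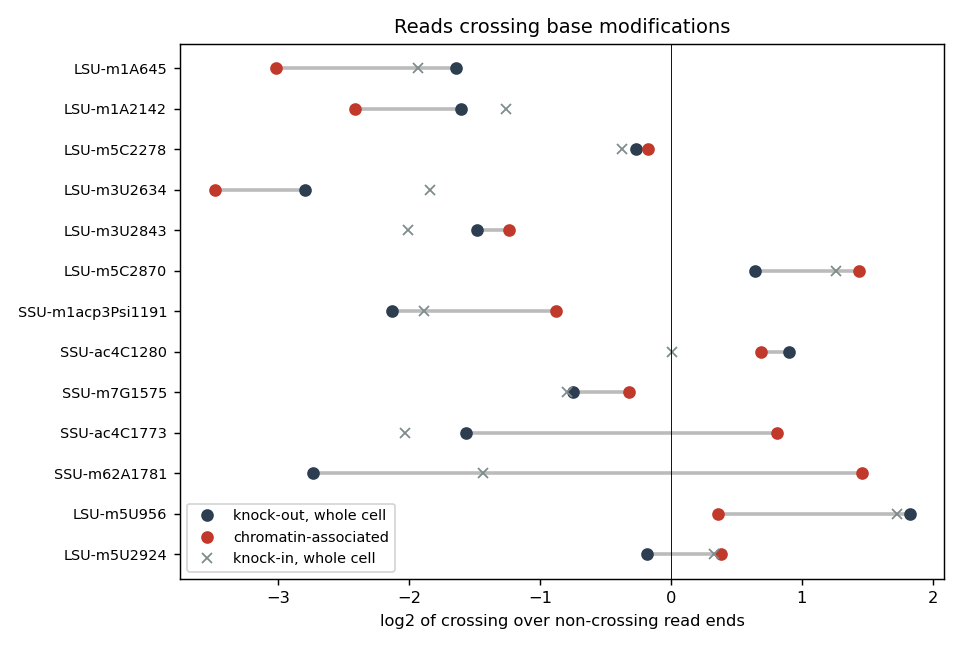
Log2 ratio of crossing to non-crossing read ends (horizontal axis) at 11 listed base modifications and at the 2 m5U positions of the deposited annotation, in the knock-out (dark), chromatin (red) and knock-in whole-cell (grey cross) libraries, 1 library each. SSU-m62A1781 moves from -2.74 in the knock-out to 1.46 in chromatin, while LSU-m1A645, LSU-m1A2142 and LSU-m3U2634 lie further left in chromatin.

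The balance of the subunits differed as well. Read ends per position were equal on 18S and 25S rRNA in chromatin, with a ratio of 0.999, and higher on 18S in the knock-out, with a ratio of 1.89. The knock-in whole-cell runs gave 1.23 and 1.38. The first 360 nucleotides of 18S rRNA had 0.887 times its mean density in chromatin and 0.770 in the knock-out, and those from 1441 on had 0.972 and 1.25. The first 679 nucleotides of 25S rRNA had 0.962 and 1.06, and those from 2717 on had 0.963 and 0.982.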

How the data were processed

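RiboMeth-seq read ends of chromatin-associated RNA and of knock-out whole-cell RNA were compared, with the knock-in whole-cell runs and gel-purified wild-type rRNA as further references. The values are in 6 tracks of 1 column. The first 3 are whole-number counts of 3' ends, 5' ends and both, deposited by the authors without normalization, and the last 3 are scores computed by the authors, which were not used. The submitters' processing notes list cutadapt 1.2 and Bowtie2 2.1.0. No genome build or handling of multiply mapping rDNA reads is given in the sources used.

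The third track was used, with positions from the deposited annotation, in Python 3.11.15 with numpy 2.4.6 and scipy 1.17.1. Flank weights ran from 1 to 0.5 in steps of 0.1. Counting intervals combined exact Poisson limits of the count with the error of the flank mean in closed form, tested on simulated data. Positions needed a flank mean of at least 10 in both libraries to enter the background. Crossing ratios were compared with positions over 40 nucleotides from base modifications and about 60 from the rRNA ends.

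The deposited annotation listed 54 of the 55 ribose sites and 9 of the 12 base modifications; guides and enzymes came from general knowledge. All 42 guide names were found in the R64 gene table. Sites named were all called ones, the 5 most negative and 5 most positive differences per subunit, the engineered and enzyme sites, and targets of guides serving both subunits; others are named as examples chosen after their values were seen. Members, lists and limits were chosen with earlier results of these data known. Sequences were not used here.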

Additional observations from a re-analysis of the deposited data

How the results depend on the processing

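The median differences stayed negative in both subunits under all 8 alternatives. With the knock-in runs as reference they were -0.086 (LSU) and -0.0499 (SSU), and with gel-purified wild type -0.135 and -0.085. The SSU median was -0.130 with 2 flanking positions and -0.131 with the median of the flanks. The counts of lower sites, 3 in each subunit, moved more. With 3' ends alone 1 SSU site was lower, and with 5' ends alone 7 LSU and 5 SSU sites. The LSU count was 1 with 2 flanking positions, 1 with negative scores kept and 5 with the median of the flanks. The limit set it most. When the run-to-run SD omitted LSU-Um2421 (limit 0.164), 13 LSU sites were lower. With the largest difference between runs as the limit, 0 LSU and 1 SSU site were lower. Without a limit 23 and 15 were lower, for which no share of all positions was calculated. By the 2-fold criterion, which was chosen after seeing the data, 16 and 14 were lower. LSU-Gm2922 was called in 10 of 11 alternatives, SSU-Am100 in 11, LSU-Gm867 in 8, LSU-Am2256 in 7, and SSU-Am541 and SSU-Am619 in 6 each. The causes were not tested.

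The median differences of pseudouridines turned to -0.072 (LSU) and -0.021 (SSU) when 3' ends were used, and were 0.142 and 0.299 when 5' ends were used. The crossing difference turned to 0.163 (10 positions) and 0.682 (knock-in reference) at SSU-ac4C1280 and to -0.195 (10 positions) at SSU-m7G1575. In every setting 2 of the listed base modifications lay above the central 95% of other positions, SSU-ac4C1773 and a dimethyladenosine, which was SSU-m62A1781 in 2 settings and SSU-m62A1782 with windows of 10 positions. No paired analysis was possible because each group had 1 sample, and for the same reason no sample could be left out. The knock-out had 3 or fewer read ends at 24 of 36 LSU and 9 of 18 SSU sites, which limits the precision of each difference.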
